A study of Mus musculus with 17 samples.

Results

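RNA polymerase II was mapped at the starts and ends of protein-coding genes in mouse macrophages, and 930 regions are described that carried a polymerase summit in all 16 libraries of the study. A summit is the 1 bp top of a called peak. Summits from every library were pooled, neighbours at most 500 bp apart were chained into 1 region, and a region was kept when its midpoint lay within 1 kb of an annotated gene start or end and every library gave it at least 1 summit. The 930 were part of 47904 chained regions, of which 13168 lay at gene ends, and 12238 of those had a summit from 1 to 15 libraries. Another 532 regions were shared by all 16 libraries but lay away from gene ends. Presence of a summit chose the regions, so that presence is a description here, while the rank of the summit, its change after treatment and its place within the region were not used in the choice.

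The cells were bone marrow-derived macrophages, which are grown from mouse marrow and serve as a model of the tissue macrophage. They were wild type (WT) or lacked N4bp1 (KO), and were either untreated or exposed to R837 for 2, 4 or 6 h, which gives 8 groups of 2 libraries. R837 (imiquimod) activates the endosomal RNA sensor TLR7. N4bp1 encodes a suppressor of inflammatory cytokine production that caspase-8 cleaves, and the series title sets it in the cross-talk of IkB kinase families. The labels do not say whether paired libraries came from separate cultures or mice, nor which part of N4bp1 was deleted, so a p-value here reflects the spread from library to library, which may be technical.

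RNA polymerase II gathers just downstream of many gene starts, where it pauses before it is released into the gene, and again near the site where the transcript is cleaved and polyadenylated. Occupancy at a start therefore reports recruitment and pausing together, and occupancy at an end reports polymerase that has crossed the gene and slowed. In macrophages, signalling from TLR7 through MYD88 to NF-kB loads polymerase onto inflammatory genes, while housekeeping genes for translation, splicing and metabolism carry polymerase at rest.

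Promoters of 6 members show the range of behaviour, each as the 120 bases just upstream of the start in GRCm38.p6, taken from RefSeq and read 5′ to 3′ on the gene's strand. Polr2a, Zfp36 and Nfkbia were among the 10 members with the best ranks, Psap and Gpnmb were among the largest falls after R837, and Srsf5 was among the most even members. Capitals mark matches on either strand to a TATA box (TATAAA), a GC box (GGGCGG), an ETS motif (CCGGAAG) or an NF-kB motif (GGGA, any base, then TTTCC), and overlapping matches run together.
Polr2a (chr11:69758634-69758753, minus strand): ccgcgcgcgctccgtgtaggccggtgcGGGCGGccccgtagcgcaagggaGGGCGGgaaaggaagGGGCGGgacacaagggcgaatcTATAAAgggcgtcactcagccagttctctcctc
Zfp36 (chr7:28379229-28379348, minus strand): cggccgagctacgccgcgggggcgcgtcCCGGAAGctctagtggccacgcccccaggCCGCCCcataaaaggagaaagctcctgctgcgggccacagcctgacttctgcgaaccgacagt
Nfkbia (chr12:55492648-55492767, minus strand): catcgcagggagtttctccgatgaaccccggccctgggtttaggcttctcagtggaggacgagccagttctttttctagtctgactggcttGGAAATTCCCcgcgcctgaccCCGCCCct
Psap (chr10:60277508-60277627, plus strand): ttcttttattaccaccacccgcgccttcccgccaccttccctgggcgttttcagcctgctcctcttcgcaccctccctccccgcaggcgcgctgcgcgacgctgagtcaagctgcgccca
Gpnmb (chr6:49036398-49036517, plus strand): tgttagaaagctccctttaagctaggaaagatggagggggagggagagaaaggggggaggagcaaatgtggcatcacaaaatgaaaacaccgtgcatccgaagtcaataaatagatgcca
Srsf5 (chr12:80945379-80945498, plus strand): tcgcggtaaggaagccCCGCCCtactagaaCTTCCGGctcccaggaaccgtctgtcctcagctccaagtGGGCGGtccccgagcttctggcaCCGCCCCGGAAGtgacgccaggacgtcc
Psap and Gpnmb held none of these letters in the window shown. Shares over the 250 bases upstream cover the 673 member genes with a matched start, whose strand came from the same RefSeq promoter entries. For 453 of the 673 the entry stood at the gene start used here, as for 10628 of all 17491 promoters. In the rest the 250 bases lie upstream of another start. An ETS motif stood in 21.1% of member promoters, in 15.3% of the 6416 start genes of the other gene-end regions and in 9.14% of all 17491 promoters in the table. The GC box stood in 60.5% of member promoters, 62.0% of the other gene-end promoters and 42.7% of all promoters, and the TATA box in 8.92%, 5.75% and 12.4%. In the same order, a cAMP response element (TGACGTCA) was held by 4.46%, 2.95% and 1.98%, an E-box (CACGTG) by 9.06%, 9.13% and 6.65%, and a CCAAT box (CCAAT) by 39.1%, 37.7% and 36.5%. The NF-kB letters were rare, in 5 of 673 member promoters and 60 of 17491.

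**Figure D1:**
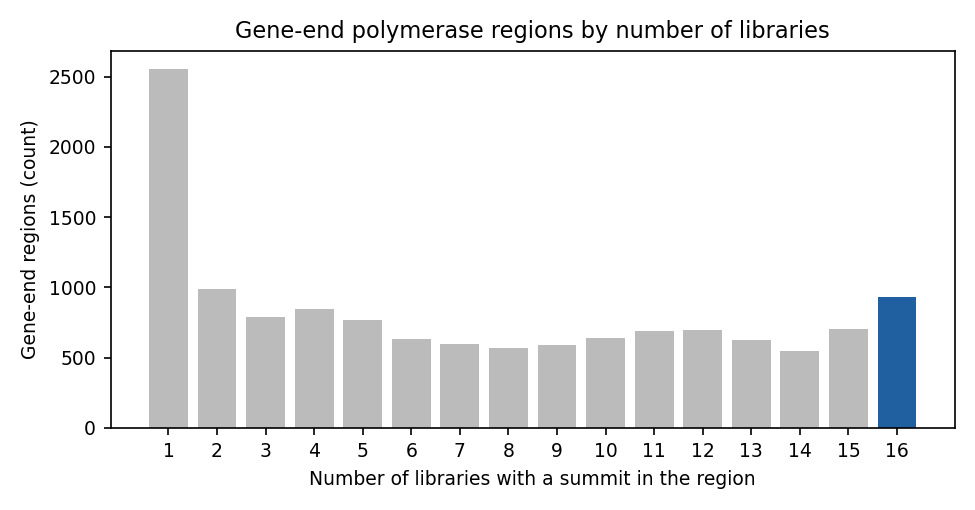
Number of gene-end regions (vertical axis) by the number of libraries that gave the region a summit (horizontal axis). The 930 regions of all 16 libraries are in blue, and 702 regions lack a summit from 1 library.

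The lists differed in length, from 8394 to 29760 summits. The shortest, WT at 6 h replicate 2, decided much of the membership, since 402 of the 702 regions found in 15 libraries (57.3%) lacked a summit from that list alone, and 1331 regions would have been members without it. KO at 2 h replicate 2 was the missing list for another 95. Near the distance limit, 19 members had midpoints in the last 50 bp inside it, with a median rank of 2124, and 17 regions in the first 50 bp beyond it had one of 1926. KO at 6 h replicate 2 stood apart by its scores, with a highest score of 563.5 where the other lists ended between 233.4 and 320.4, and no more than 0.0874% of its scores also occurred in another list. Codes in the deposited peak names form 3 series, with untreated and 2 h libraries in 1 of them and the 4 h and 6 h libraries each in their own, so only the 2 h change was measured within a series. At N4bp1 itself every library of both genotypes had a summit. Each untreated list held 1 there, while after 2, 4 and 6 h the WT lists held 4 and 5, 13 and 16, and 13 and 6, and the KO lists 7 and 7, 20 and 23, and 34 and 23. At each treated time both KO lists thus held more summits at N4bp1 than both WT lists. These counts are not adjusted for list length, and at 4 and 6 h both KO lists were longer than both WT lists. The best ranks there overlapped at 2 h (952 and 2457 in WT, 539.5 and 1588.5 in KO) and at 4 h (1280 and 2230, 779 and 1713.5). At 6 h they were 2729.5 and 3459 in WT and 1068 and 1122 in KO. The difference was not tested.

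Members mostly sat at gene starts. Of the 930, 587 (63.1%) lay at a start only, 135 (14.5%) at a transcript end only and 87 (9.35%) within reach of both a start and a transcript end, while 121 had no gene with a strand in the tables used. Among other gene-end regions the shares were 57.1% at starts, 21.9% at ends and 3.52% at both. Starts of a pair of genes on opposite strands, the layout of a bidirectional promoter, were held by 94 members (10.1%) against 6.67% of the other gene-end regions. The members named 1119 genes, 5.11% of the 21896 protein-coding genes. Genes that start at a member were short, with a median length of 11783 bp against 21939 bp for starts at the other gene-end regions. Chromosome 11 held 137 members, 8.51 per 100 genes, and the X chromosome 11, or 1.14 per 100 genes.

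The choice by summits favours wide regions. The members' median width from first to last summit was 863.5 bp, against 278 bp for the other gene-end regions and 1754 bp for the 532 regions of all libraries away from gene ends, so width is not particular to the members. In 286 members every list gave exactly 1 summit, and 112 averaged over 2 summits per list. The widest spanned 7951 bp at the transcript ends of Timm22 and Abr, and other wide members lay at Tcirg1, a subunit of the osteoclast and lysosomal proton pump, Trim56, Ifngr2, a chain of the interferon gamma receptor, and Rps20. Where strand was known, the median place of the best summit in each library was 71 to 121 bp downstream of the start. Single members varied, and many had it upstream. Over 674 members the first quartile of this distance was -43.25 bp untreated and -45.1 bp after R837, where a minus sign means upstream. The median rank of a member over the 16 lists was 1588, where rank 1 is the best summit of a list.

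Ranks are compared on a log2 scale after every list was shortened to its 8394 best summits. A rank score is log2 of 8395 divided by the rank, so it runs from 0 outside the shortened list to 13.04 at the top. A change of 1 means a rank better or worse by a factor of 2. It gives a place within a list and is no amount of polymerase, and read depth is unknown. Of the members, 587 stayed within the 8394 best of all 16 lists and 164 of 15.

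**Figure D2:**
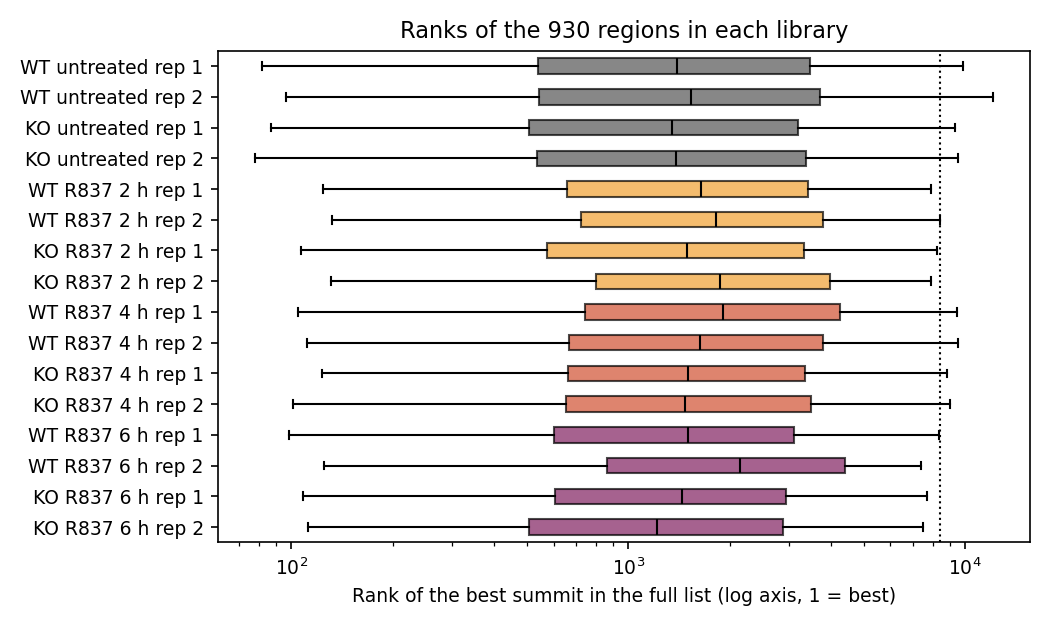
Rank of the best summit of each of the 930 regions (horizontal log axis) in each library (rows, coloured by time). Boxes give the quartiles and median, whiskers the 5th and 95th percentiles, and the dotted line marks rank 8394; library medians run from 1215 to 2142.

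Gtf3c6, a subunit of the general factor TFIIIC of RNA polymerase III, had the best median rank, 12, with ranks of 12 to 43.5 in untreated lists and 3 to 124 after R837. Zfp36, which encodes the mRNA-destabilising protein tristetraprolin, followed with ranks of 8 to 20 and 5 to 54.5, which overlapped. Its change after R837 was -0.27 ± 0.37 (SE; limma adjusted p = 0.574). Spi1, the gene of the macrophage lineage factor PU.1, ranked 43.5 to 113 at rest and 15 to 55 after R837, a rise of 1.32 ± 0.32 (adjusted p = 0.012), which was 0.97 without WT untreated replicate 2 (adjusted p = 0.050). Polr2a, the gene of the polymerase's own largest subunit, ranked 2, 3, 10 and 7 in the untreated lists and 14 to 60, with a median of 27.5, after R837. All 12 treated lists lay below all 4 untreated lists, a fall of 2.63 ± 0.30 (adjusted p = 0.000151). The ribosomal protein gene Rpl3 fell by 1.84 ± 0.45 (adjusted p = 0.0117). The Rpl3 call was lost without WT untreated replicate 2 or KO untreated replicate 1 (adjusted p = 0.061 and 0.0657).

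Members held 6 of 10 defining macrophage markers (Csf1r, Spi1, Cd68, Tyrobp, Lyz2 and Itgam). No defining marker of stroma, mast cells, erythroid cells, neutrophils, B cells or the T and NK lineages was at a member. The dendritic marker Xcr1 shared its region with Fyco1, so the signal there cannot be assigned.

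Treatment moved many members in both directions. Over both genotypes and all times, 121 of 930 members (13%) rose and 154 (16.6%) fell after R837, where 7.46% and 17.7% of all 15767 regions tested rose and fell. The share that rose was above this background and the share that fell was close to it, but the background depends on which regions are tested. Among the 5943 regions with a summit among the best of at least 8 libraries, 21% rose and 22.7% fell, against 14.8% and 20% of members in that fit, so the order for rises turns round. The median change of members was -0.28, against 0.02 over all regions tested. In 44 members all 12 treated lists lay above all 4 untreated ones and in 60 below, where 1.55% and 5.69% of tested regions did so, equal to 4.73% and 6.45% of members. At 2 h, 103 rose and 136 fell (8.97% and 14.7% of all tested), at 4 h 94 and 127 (8.66% and 12.8%), and at 6 h 106 and 124 (6.88% and 14%). The 3 times share the same untreated lists. Without KO at 6 h replicate 2, the list with scores of its own, 127 rose and 168 fell over all times, and 91 and 117 at 6 h. Chaining summits at 250 bp gave 686 members with 58 rises and 93 falls (8.45% and 13.6%), against 3.2% and 11.6% of all regions tested that way. Counting the summits of a region within the shortened lists, in place of ranking them, gave 76 rises and 6 falls (8.17% and 0.645% of members). Of all 15767 regions tested, 12.4% rose and 16% fell by this count, so members were below the background in both directions. The sign was opposite at 16 of the members named for their change. Among these were Polr2a, Calr, Metrnl, Grn, Ubb, Rplp0, Pfkl, Tpt1, Trmt2a and the Mfsd12, Sharpin and Gramd2 with Pkm regions. The count change was small and not called at Polr2a (0.146), Calr (0.0487), Metrnl (0.181) and Gramd2 with Pkm (-0.0346), on the scale of log2(summits + 1). Their limma adjusted p-values were 0.472, 0.634, 0.517 and 0.880. Calls at every time were made for 38 rises and 61 falls. Of the calls over all times, 76 of 121 rises and 102 of 154 falls were also called at 2 h, within 1 series. The shares of all regions tested that did so are not given here, so these counts have no background to be set against.

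**Figure D3:**
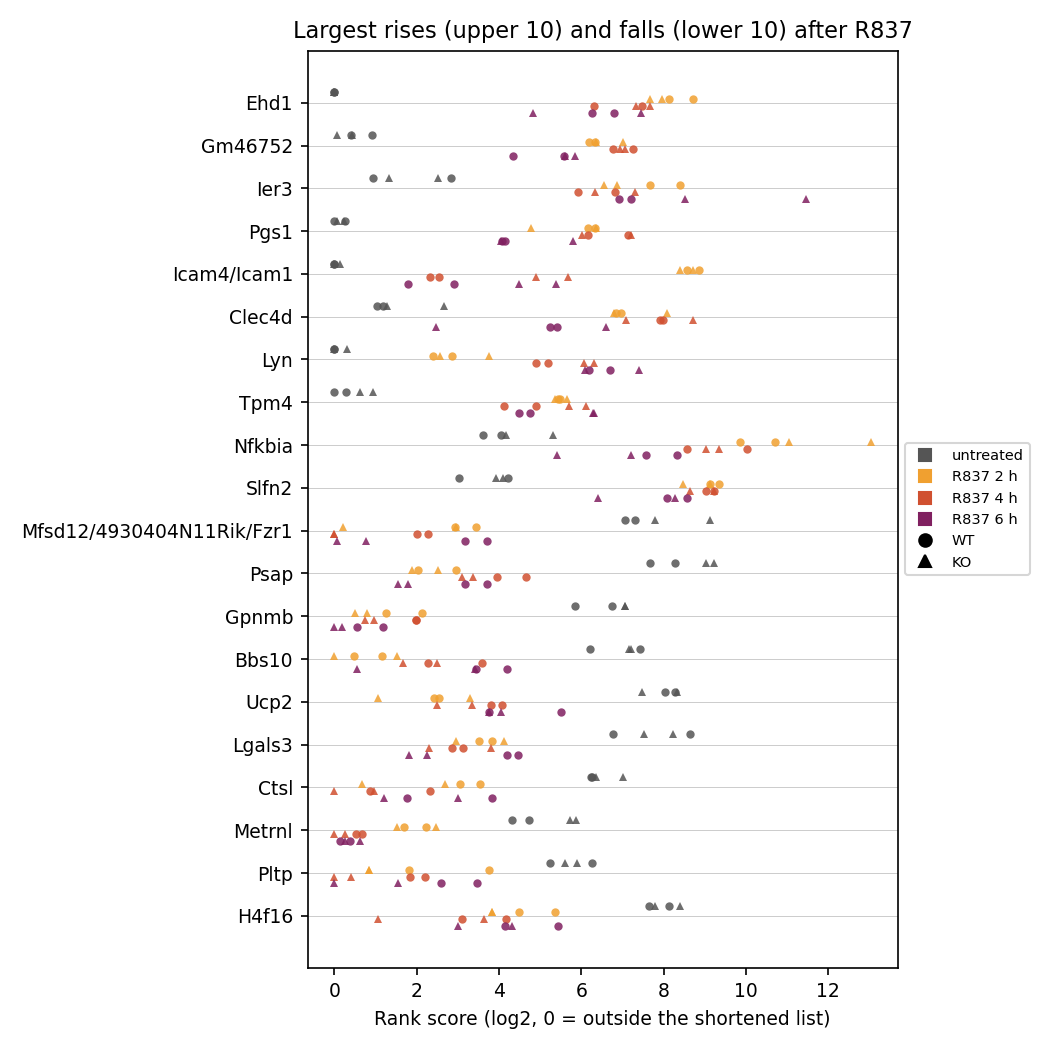
Rank score (log2, horizontal axis) of the 10 members with the largest rise and the 10 with the largest fall after R837 in each of the 16 libraries, coloured by time, with circles for WT and triangles for KO. For Psap and Gpnmb every untreated library lies above every treated one, and for Ehd1 every treated library lies above every untreated one.

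Nearly every member on the NF-kB target list rose. The list of 32 primary NF-kB response genes had 8 member regions for 7 genes, of which 7 rose and none fell, with a median change of 4.43. Beside this list and those below stand the shares of all regions tested, 7.46% rising and 17.7% falling. Ehd1, an endocytic recycling gene, ranked 8444 to 12174 in the untreated lists, outside the shortened list in all 4. After R837 its ranks were 20 to 297 with a median of 47.5. The groups did not overlap, and the change was 7.22 ± 0.47 (limma adjusted p = 3.22e-06), by 8.12 at 2 h and 6.33 at 6 h. All 4 untreated scores were 0, the floor of the scale, so the region entered the fit through treated lists alone. Floor scores have no spread, which limits this p-value and leaves the size of the change dependent on where the lists were cut. Nfkbia encodes IkB alpha, the inhibitor that NF-kB induces against itself. Its untreated ranks were 693 and 507 in WT and 213 and 467 in KO, and at 2 h they were 5, 9, 1 and 4. The rise was 6.88 after 2 h, 4.97 after 4 h and 2.85 after 6 h (adjusted p = 3.64e-05, 0.000322 and 0.00632). Its summit region lies just downstream of the NF-kB letters printed above, whose match begins 29 bases before the start.

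Ier3, a survival gene, moved from ranks of 1189 to 4378 to ranks of 3 to 139, a rise of 5.6 ± 0.56 (adjusted p = 6.25e-05). Icam1, the adhesion ligand of leukocyte integrins, had members at both ends. Its start rose by 3.96 ± 0.63 and its end, where the neighbour Icam4 starts, by 5.35 ± 0.35 (adjusted p = 0.000971 and 3.58e-06). The signal in that end region cannot be assigned to either gene. At that end the untreated ranks were 7676 to 19979 and the 2 h ranks 18 to 25. Malt1 and Nfkbie, a signalling protease and another IkB, rose by 2.44 ± 0.55 and 2.67 ± 0.52. Irf1 was the NF-kB list member with no call, at -0.20 ± 0.57 (adjusted p = 0.779). The WT libraries ranked it 339.5 and 1075 untreated, 198.5 and 156 after 2 h and 1260 and 6394.5 after 6 h. Its KO and 4 h ranks are not given here, so these values do not describe its whole time course.

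Slfn2, a growth regulator of immune cells, went from ranks of 450 to 1028 to ranks of 13 to 100 (4.81 ± 0.39, adjusted p = 1.35e-05). Tnfrsf1b, the TNF receptor 2 gene, went from 139 to 182 to 6 to 30 (3.43 ± 0.32, adjusted p = 3.68e-05). For both, no treated list reached the untreated range. The receptor gene Clec4d rose by 5.14 ± 0.65, and the Src-family kinase gene Lyn by 4.95 ± 0.37. Lyn gained 2.82 after 2 h, 5.53 after 4 h and 6.51 after 6 h, although these times were not tested against each other. Tpm4, a tropomyosin gene, rose by 4.93 ± 0.31, Pgs1 by 5.54 ± 0.45 and Gm46752 by 5.81 ± 0.35. In the actin list 3 of 12 member regions rose and 1 fell, where 7.46% and 17.7% of all regions tested did so. The rises were at the start shared by Lrrc63 and Lcp1 (4.21), the end of Actg1 (2.83) and the end of Arpc4 (1.15). The start of Arpc1b fell by 2.12. Without KO untreated replicate 1 the Arpc4 change was 1.08 (adjusted p = 0.0516).

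Immediate early genes ranked well in untreated lists. None of the 5 member regions of that list rose, and Ier5 fell by 2.17 ± 0.46 (adjusted p = 0.00526). Of all regions tested 7.46% rose and 17.7% fell, so counts this small do not set the list apart. Fos changed by -0.69 ± 0.45 (adjusted p = 0.279). Dusp1, a phosphatase that limits MAP kinases, had ranks of 80, 60, 111 and 31 untreated, and 6, 6, 12 and 14 at 2 h. Its 4 h ranks were 2095 and 19 in WT and 2783 and 2491 in KO, so the WT replicates stood far apart there, and the change over all times was -0.58 ± 1.17 (adjusted p = 0.692). In the negative feedback list, 2 of 6 regions rose, Nfkbia and Socs1 (1.46 ± 0.42, adjusted p = 0.0254), the latter an inhibitor of cytokine receptor signalling. Without WT untreated replicate 1 or 2 or KO untreated replicate 1 the Socs1 change was 1.41, 1.52 and 1.30 and was not called (adjusted p = 0.0836, 0.0626 and 0.103).

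Interferon-stimulated genes had 7 member regions, of which 2 rose and none fell, with a median of 0.60. The shares over all regions tested were 7.46% and 17.7%. Irf7, the factor that drives interferon genes downstream of TLR7, rose by 2.49 ± 0.43 (adjusted p = 0.00174), with changes of 0.83 after 2 h and 3.60 after 4 h (adjusted p = 0.285 and 0.000999). The start of Ifi35 rose by 1.72 ± 0.51 (adjusted p = 0.0303), and this was not called without WT untreated replicate 2, KO untreated replicate 1 or KO untreated replicate 2 (1.27, 1.72 and 1.72, adjusted p = 0.156, 0.0879 and 0.0900). From the TLR, IKK and caspase-8 list, 4 regions were members. Myd88, the adaptor of TLR7, rose by 1.95 ± 0.38 (adjusted p = 0.00325), and the region of Psme2 and Rnf31, which encodes a subunit of the linear ubiquitin ligase, rose by 1.54 ± 0.41 (adjusted p = 0.0168). Sharpin, another subunit of that ligase, shares its region with Maf1, and that region fell by 1.58 ± 0.39 (adjusted p = 0.0115). The Psme2 region was not called without WT or KO untreated replicate 2 (adjusted p = 0.0849 and 0.0681), nor the Sharpin region without KO untreated replicate 2 (adjusted p = 0.0571).

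Of 7 member regions in the glycolysis list, for 5 of its 20 genes, 4 rose over all times and none fell, with a median of 2.07. The glucose transporter gene Slc2a1 ranked 4003 to 9770 at rest, 2674 to 10490 at 2 h and 342 to 853 at 4 and 6 h. Its change was 0.25 after 2 h, 3.60 after 4 h and 2.94 after 6 h (adjusted p = 0.759, 0.000226 and 0.000751). Pfkl, for a phosphofructokinase, gave 0.31 at 2 h (adjusted p = 0.715), then 3.15 and 2.76. Every list held 1 summit there. Counting summits within the shortened list gave the opposite sign, -0.167 on the scale of log2(summits + 1). The WT 2 h lists ranked it 10510 and 9502.5, beyond the shortened list. That count did not vary within any group, so no p-value is given for it. The end of Gapdh, shared with Iffo1, ranked 1812 to 3081 at rest, 260 to 615 at 2 h, 65 to 87.5 at 4 h and 17 to 26 at 6 h. It rose by 4.74 ± 0.35 over all times and by 6.88 at 6 h (adjusted p = 8.36e-06 and 4.87e-06). The Gapdh start changed by 1.03 ± 0.52 (adjusted p = 0.167) and the Pkm start by 0.09 ± 0.53 (adjusted p = 0.888), the latter with a fall of 2.73 at 2 h (adjusted p = 0.0105). The late times stand in other name series than the untreated lists, so time and series cannot be told apart.

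Of 10 member regions in the lysosome list, for 8 of its 29 genes, 7 fell and none rose, with a median of -2.65. Psap, the precursor of the saposins that activate lipid hydrolases, ranked 27, 41.5, 16 and 14 in the untreated lists and 331 to 2862, with a median of 1031, after R837. Its fall was 5.66 ± 0.35 (adjusted p = 2.14e-06), and all 12 treated lists lay below all 4 untreated ones. The protease gene Ctsl fell from ranks of 65 to 111.5 to ranks of 589 to 12965 (-4.48 ± 0.55, adjusted p = 0.000215). The region of Ctsb and Fdft1 fell by 3.64 ± 0.57, that of Slc18a1 and Atp6v1b2, for a proton pump subunit, by 2.22 ± 0.31, and Ctss by 2.08 ± 0.39. Progranulin (Grn) fell at its start by 3.28 ± 0.56 and at its end by 3.08 ± 0.56 (adjusted p = 0.00158 and 0.00213). The regions not called were a pair at Atp6v0c and the shared end of Nelfcd and Ctsz, at -1.02, 0.10 and 1.21.

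Macrophage identity genes divided, with 4 rises and 4 falls among 10 member regions. Gpnmb, a glycoprotein gene of lipid-handling macrophages, ranked 63 to 145 untreated and 1919 to 10636 after R837 (-5.66 ± 0.31, adjusted p = 7.93e-07), again without overlap. Lgals3, for galectin 3, fell by 4.52 ± 0.45, the region of Hmgxb3 and the growth factor receptor gene Csf1r by 3.06 ± 0.59, and Tyrobp by 2.14 ± 0.45. The integrin gene Itgam rose by 3.01 ± 0.45, with 0.47 at 2 h (adjusted p = 0.614), 4.26 at 4 h and 4.30 at 6 h. Lysozyme (Lyz2) rose by 2.41 ± 0.54 and the Fc receptor gene Fcgr3 by 1.27 ± 0.32. Fcgr3 ranked 12624.5 to 19978 in the untreated lists, all outside the shortened list. Its rise therefore starts from the floor score of 0, and it entered the fit through treated lists alone. In bulk samples fewer cells of a type and less polymerase per cell cannot be told apart.

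The largest fall of all members was at the transcript ends of Mfsd12 and Fzr1, in a region that also names 4930404N11Rik. It fell by 6.03 ± 0.48, from ranks of 15 to 63 to ranks of 641 to 11696 (adjusted p = 1.26e-05). Ucp2, a mitochondrial carrier gene, fell by 4.69 ± 0.48, Bbs10 by 4.93 ± 0.55, the secreted factor gene Metrnl by 4.26 ± 0.28, and the lipid transfer gene Pltp by 4.14 ± 0.44. Urgcp fell by 1.97 at 2 h, 2.45 at 4 h and 6.42 at 6 h. Histone genes, chosen after their values were seen, had 19 member regions, of which 16 fell and none rose, with a median of -2.41. Over all regions tested 17.7% fell and 7.46% rose. H4f16 went from ranks of 25 to 42 to ranks of 193.5 to 4045, and H2ax from 30 to 75 to 79 to 2556, both without overlap. The histone regions without a call were those of H2ac18, H2aj and H3f3b, at -1.24, 0.04 and 1.08. Histone, ribosomal protein and other multicopy genes have near-identical copies, and how the authors placed reads that match several copies is not given in the sources used here.

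Ribosomal protein genes gave 72 member regions for 62 of 79 genes, with 6 rises, 4 falls and a median of 0.28. For comparison, 7.46% of all regions tested rose and 17.7% fell. Among the falls were the starts of Rplp0 (-2.28 ± 0.56) and Rpl13a (-1.37 ± 0.31), and among the rises the shared end of Rpl23 (1.61 ± 0.32) and the ends of Rpsa (1.14 ± 0.31) and Rpl26 (0.81 ± 0.24). The start of Rplp0 was not called without WT untreated replicate 1 or KO untreated replicate 2 (adjusted p = 0.0547 and 0.0538). None of 15 translation factor regions was called by limma, with 2 rises and 1 fall at an unadjusted p under 0.05, and changes ran from -1.10 to 0.90. Splicing and RNA-binding genes gave 22 regions for 21 of 42 genes, where Hnrnpab was the single call (-1.24 ± 0.39, adjusted p = 0.0367) and the median was -0.53. That call was lost in 6 of the 16 fits that left out 1 library, WT untreated replicate 1 and KO untreated replicate 1 among them (adjusted p = 0.129 and 0.140). Among 8 regions of the chaperone list the endoplasmic reticulum gene Calr fell by 1.73 ± 0.38. The region of Hsp90ab1, which lies at the transcript end of Slc35b2, rose by 2.55 ± 0.37. In the proteasome and ubiquitin list Ubb fell by 1.49 ± 0.46 (adjusted p = 0.036) and the Psme2 region rose, and the Ubb call was lost in 9 of the 16 fits that left out 1 library, any untreated one included (adjusted p = 0.0761 to 0.109). Of 7 regions for RNA polymerase II and Mediator genes Polr2a was the single call. Limma called none of 7 regions for antigen presentation and none of 3 for oxidative phosphorylation, with 3 rises and 1 rise at an unadjusted p under 0.05 and no falls.

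The most even members were Gpbp1l1 with Tmem69, Dennd4b, Slc39a1, Asxl2 and Srsf5, chosen by the smallest SD of rank score among regions within the shortened list of every library. Srsf5, a splicing factor gene, ranked 238 to 663 untreated and 235 to 814 after R837, with medians of 471 and 472 and an SD of 0.53 over the 16 lists. The choice by a small SD fixes this evenness.

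Rises were most frequent among the members at transcript ends. Of 135 members at transcript ends only, 41 (30.4%) rose and 14 (10.4%) fell, while of 587 at gene starts only, 56 (9.54%) rose and 95 (16.2%) fell. Other tested gene-end regions also had more rises at ends, 12.2% of 757, than at starts, 2.12% of 4142, and falls in 10.3% and 27.0%. Ends that rose included Gadd45b (4.73), a stress response gene, Syk (3.55), an immune receptor kinase, and Lilr4b (3.45), while Fcgr3, Ifngr2, Gpr84 and B4galt5 rose by 1.27, 1.53, 2.33 and 2.36. Untreated ranks at the ends of Fcgr3 and B4galt5 (9858.5 to 17757 in B4galt5) all lay outside the shortened list. Both of those rises start from the floor score. The Ifngr2 change was 1.30 without WT untreated replicate 2 (adjusted p = 0.0517). Other falling ends than those already named included Adap2 (-2.64) and Stx4a (-2.64).

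The ends of the same gene were then compared within each library, a comparison added after the values of single regions were seen. The rank score at the start was subtracted from that at the transcript end for 796 genes with separate regions at both, of which 57 had members at both. After R837 the end rose relative to the start in 12 of the 57 genes (21.1%), where 16.6% of all 796 did so. No member gene fell, against 7.16% of all, although 2 fell at an unadjusted p under 0.05. The median change was 0.43 in member genes and 0.41 in all, so the members' middle was that of all genes.

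In 4 of the 12 genes the end rose by its own test and the start was not called. Itga5, an integrin chain gene, had start ranks of 248 to 1904 at rest and 190 to 12819 after R837, and end ranks of 2083 to 6672 and 73 to 933. Its end gained 4.15 ± 0.76 on its start (adjusted p = 0.00301). Pkm, for pyruvate kinase, gained 2.85 ± 0.50. Its end region, which also holds the start of Gramd2, ranked 2694.5 to 5025 at rest, with a median of 3401, and 74 to 10293 after R837, with a median of 214.5, and the ranges overlapped, with 2 h ranks of 1637.5 to 10293. Actg1 gained 2.68 ± 0.59. In 7 genes the start fell and the end was not called. Map2k2, a MAP kinase kinase gene, had start ranks of 79 to 136 at rest and 170 to 1532 after R837, while its end ranks overlapped, at 3361 to 11380 and 1838 to 14241. Its end gained 2.68 ± 0.41 (adjusted p = 0.0011). Others were Rplp0 (2.99 ± 0.88), Trim41 (3.63 ± 0.93), Sertad1 (2.81 ± 0.46) and Rfc4 (2.77 ± 0.58), of which Rfc4 shares its end region with Eif4a2 (1.61 ± 0.42), so these are not separate observations. A rank score has its floor outside the shortened list, so an end with a poor rank at rest had little room to fall. Median end ranks at rest in the 7 genes were 7551 (Gps2), 5564 (Map2k2), 5341.5 (Rplp0), 4189 (Trim41), 3735.5 (Rfc4), 2033.25 (Sertad1) and 850.25 (Rpl13a). Where the end ranked near the edge of the shortened list, its gain on the start does not show that it held its place. Without WT untreated replicate 1 the end rose relative to the start in 7 of 57 genes.

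**Figure D4:**
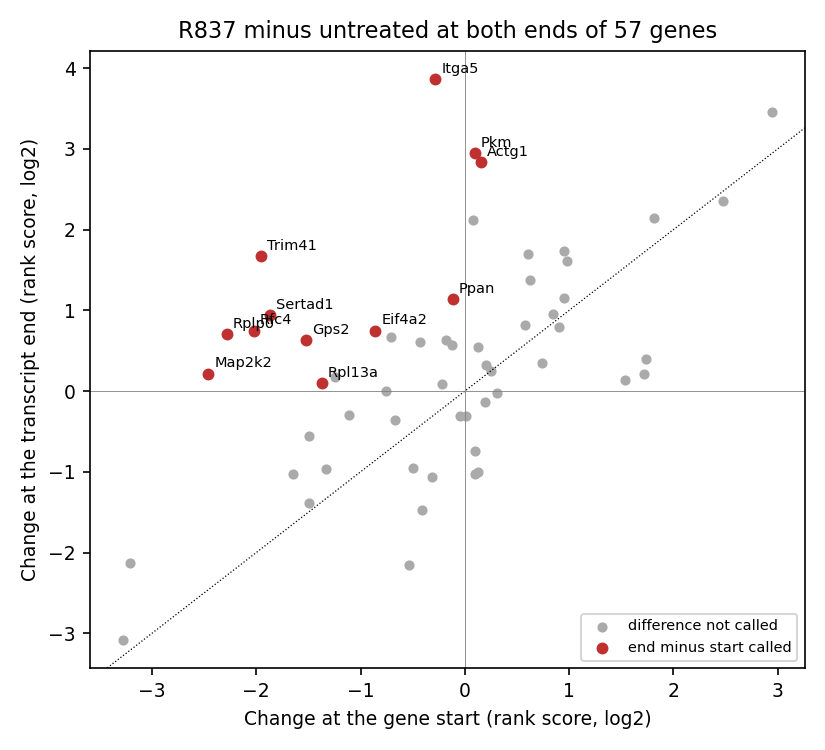
Change in rank score (log2) after R837 at the gene start (horizontal axis) and at the transcript end (vertical axis) of the 57 genes with members at both. Red points are the 12 genes whose end changed differently from their start, all above the dotted line of equal change.

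The best summit moved within 16 of 930 members after R837, where 2.05% of the 1462 regions of all libraries did so (1.72% of members). At Ehd1 it moved by 1148 ± 56 bp to higher coordinates (adjusted p = 1.01e-05). At Zbtb5 it moved 579.5 ± 53 bp downstream, at Eef1a1, a translation elongation factor gene, 195 ± 24 bp, and at Nfkbia 92.8 ± 19 bp downstream (adjusted p = 0.000528, 0.00355 and 0.0455). At Tpt1 it moved 369 ± 74 bp upstream (adjusted p = 0.0448). In a region with several summits this is a change of which summit ranks best, and members averaged 1.31 to 1.34 summits in untreated lists and 1.34 to 1.54 after R837. Without WT untreated replicate 1 or 2 or KO untreated replicate 1, the calls were 9, 8 and 10.

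Loss of N4bp1 called few members. In untreated cells none was higher in KO than in WT and 1 was lower, where 0.742% and 0.970% of all regions tested were called, and 17 and 15 members passed an unadjusted p under 0.05. It was Trmt2a, a tRNA methyltransferase gene, with ranks of 1115 and 375.5 in WT and 3193 and 5662 in KO. The difference was -2.72 ± 0.60 (adjusted p = 0.0475), and the call was lost in 14 of the 16 fits that left out 1 library, all but those without replicate 1 of either untreated group.

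After R837, over the 3 times, 2 members were higher in KO and 6 lower, where 0.729% and 0.989% of all regions were, so members did not exceed the background. At an unadjusted p under 0.05 the balance was the other way, with 96 higher and 57 lower, and the median difference was 0.21 over the members and 0.01 over all regions tested. At the end of Icam1, where Icam4 starts, the 2 h ranks in WT were 22 and 18, the 4 h ranks 1682 and 1441 and the 6 h ranks 2415 and 1125. In KO they were 20 and 25, then 165 and 280.5, then 373.5 and 200.5. The genotypes overlapped at 2 h and stood apart at 4 and 6 h, and the difference over all times was 1.76 ± 0.35 (adjusted p = 0.033). Pgd, a pentose phosphate pathway gene, was higher in KO by 1.74 ± 0.34 (adjusted p = 0.0305), with WT ranks of 3917 to 7091 and KO ranks of 617 to 4573.

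Of the 6 lower members 4 lay at transcript ends only. The end of Foxj2 was lower by 2.34 ± 0.41 and that of Slc35f6 by 1.97 ± 0.34 (adjusted p = 0.0186 for both), and that of Fcgr3 by 1.64 ± 0.32 (adjusted p = 0.0292). At Fcgr3 WT ranks were 897 to 4846 and KO ranks 2459 to 11777. The region of Mfsd12, 4930404N11Rik and Fzr1 was lower by 2.26 ± 0.48, Pltp by 2.01 ± 0.44 and the region of Tmem106a and Nbr1 by 1.75 ± 0.39 (adjusted p = 0.0428, 0.0454 and 0.0497). The counts depended on single libraries. Without WT at 6 h replicate 1 they were 10 higher and 12 lower, and without WT at 6 h replicate 2 they were 1 and 2. Higher members numbered 7 without KO at 2 h replicate 2, 5 without KO at 4 h replicate 2, 9 without KO at 6 h replicate 1 and 1 without KO at 4 h replicate 1, and lower members numbered 3 without KO at 4 h replicate 1 or any 1 of the 4 untreated libraries. Without KO at 6 h replicate 2 they were 3 and 5. The calls of Foxj2 and Slc35f6 were kept in all 16 fits that left out 1 library. Those of the Mfsd12, Pltp and Tmem106a regions were lost in 13 each, that of Fcgr3 without WT at 6 h replicate 2 (-1.51, adjusted p = 0.0557), that of Icam4 and Icam1 without replicate 1 of WT or KO at 4 h (adjusted p = 0.0542 and 0.0521), and that of Pgd without KO at 4 h replicate 2 or WT at 6 h replicate 2 (adjusted p = 0.0512 for both).

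**Figure D5:**
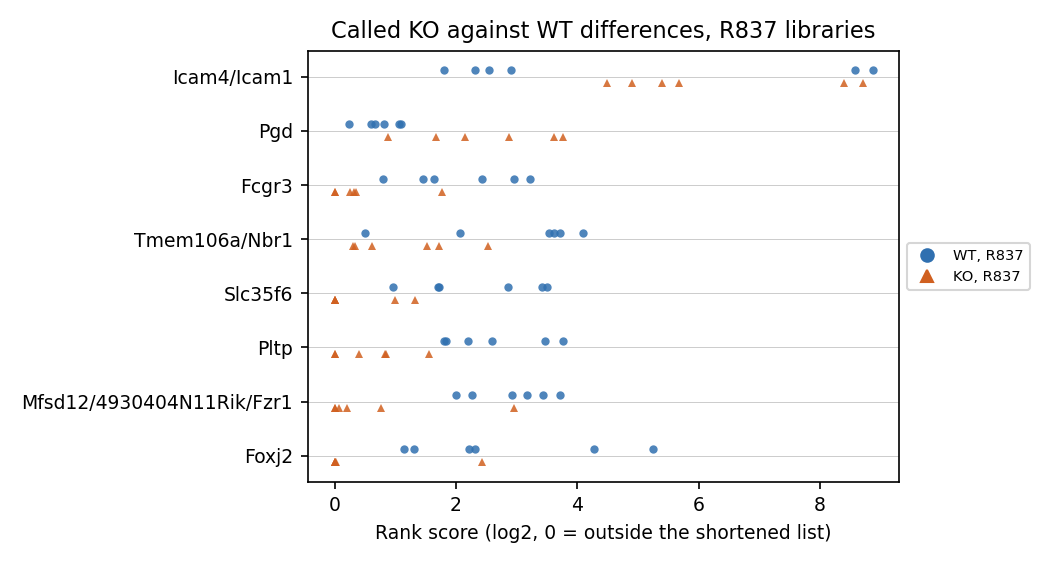
Rank score (log2, horizontal axis) of the 8 members called between genotypes after R837 in each treated library, with blue circles for the 6 WT and orange triangles for the 6 KO libraries. At Icam4/Icam1 the pair of highest values of each genotype are the 2 h libraries, where the genotypes overlap.

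The response to R837 itself was not shown to differ between genotypes in any member. The limma test of the difference called 0 members in either direction, with 26 and 30 at an unadjusted p under 0.05, where 0.628% and 0.501% of all regions were called higher and lower. Its median over the members was 0.08. Calls of 1 or 2 members appeared without WT untreated replicate 1, WT untreated replicate 2, KO untreated replicate 2, KO at 2 h replicate 2 or WT at 6 h replicate 1.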

How the data were processed

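The submitters' processing notes name GSNAP, MACS2 and the mouse build GRCm38. Versions, call threshold, control and handling of repeated sequence are not given in the sources used here. One deposited file per library listed its 1 bp summits with the authors' score, a −log10 p-value or −log10 q-value (the files do not say which), which served only to rank summits within a list. Read counts are not in these lists, so depth is unknown. The labelled input sample was not used here.

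Summits (298175) were chained at 500 bp and matched within 1 kb to the 21896 protein-coding genes of a RefSeq table for GRCm38.p6, with strand from its promoter table (17491 genes). Ties took the mean rank. Rank scores of 15767 regions with a summit among the 8394 best of at least 2 libraries entered 1 limma fit (version 3.58.1, R 4.3.3) with 8 group means over 16 libraries and a variance trend. Best-summit positions (1462 regions of all libraries) were fitted without a trend, and the end-minus-start differences over 796 genes. Benjamini-Hochberg adjustment ran over all features of a contrast, and calls were made at 0.05. Scripts were tested on simulated data. Errors after ± are SEs of these fits. Alternatives were other chaining and gene distances, filters, rank rules, a replicate block, no variance trend, summit counts and each library left out in turn.

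The regions and gene lists were chosen with earlier results of these data known. Genes were named by rule: best median rank, largest called changes per contrast and list, lowest SD, largest shifts and widest regions. Others, such as histone genes, Irf1, Fos, Dusp1, called list members beyond the first 4 of their list and examples at transcript ends, were chosen after their values were seen. A few results are not reported here.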

Additional observations from a re-analysis of the deposited data

Results flagged for a closer look

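In 6 members all 4 libraries of one treated time lay above and all 4 of another below the 4 untreated libraries, over both genotypes. The share of all tested regions that did so is not given here, so this count has no background to be set against. The difference between the times was not tested in any of them, and the times stand in different name series.

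At Hmox1, for heme oxygenase 1, the rank score changed by -2.9 at 2 h and by 2.83 at 6 h (adjusted p = 0.00148 and 0.00196). Untreated scores were 3.58 to 4.41, those at 2 h 0 to 2.97 and those at 6 h 6.45 to 7.18. The start region of Pkm changed by -2.73 at 2 h and 2.3 at 6 h (adjusted p = 0.0105 and 0.0264). Nfu1, an iron-sulfur cluster gene, changed by -0.678 at 2 h and 2.4 at 6 h (adjusted p = 0.35 and 0.00551). The end region at Ifnar2 and Il10rb, which encode cytokine receptor chains, changed by 1.26 at 2 h and -1.1 at 6 h (adjusted p = 0.0756 and 0.13). The beta-arrestin gene Arrb2 had a pair of members, and the one at the higher coordinate changed by 1.66 at 2 h and -0.333 at 4 h (adjusted p = 0.0224 and 0.683), with every 4 h library at a score of 0. Rpl36a changed by -0.453 at 2 h and 0.691 at 4 h (adjusted p = 0.422 and 0.219).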

How the results depend on the processing

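Depth is unknown, 2 libraries make a group, and a rank shows a place in a list, so limits come from the lists. Members numbered 930, and 929 to 1331 when 1 library was left out. Leaving out 1 library gave these ranges of rises and falls: 92 to 127 and 121 to 170 for R837 over all times, 86 to 109 and 91 to 146 at 2 h, 70 to 103 and 91 to 131 at 4 h, and 75 to 106 and 100 to 125 at 6 h. For KO against WT they were 0 to 1 and 0 to 1 untreated, 1 to 10 and 2 to 12 after R837, and 0 to 1 and 0 to 2 for the response. End minus start gave 7 to 13 and 0 to 1, and positions 8 to 22. Of 68 named changes after R837, 52 kept their call throughout.

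Chaining at 250 bp, with 686 members, gave 58 and 93 over all times, 55 and 87 at 2 h, 53 and 78 at 4 h, 62 and 73 at 6 h, 1 and 2 for KO after R837 and 0 falls untreated. Chaining at 1000 bp gave 2 KO falls after R837 and 1 response call. Midpoints within 500 bp gave 69 rises among 684 members (10.1%, against 7.46% of all regions tested). With no filter, where most residual variances were 0, which limits that fit, falls were 86 over all times and 66 at 2 h, counts were 52 and 63 at 4 h and 54 and 70 at 6 h, and 0 and 2 for KO after R837. A summit in at least 8 libraries gave 0 KO falls untreated and 1 KO rise after R837. The replicate block gave 0 KO falls untreated, 1 and 3 for KO after R837 and 10 position calls, and the same-number correlation had a median of -0.0025 over 28 pairs. Without a variance trend KO gave 1 rise untreated, 7 and 12 after R837, and the response 1 and 2. The response had 1 rise with 1 rank per region and with 5000 best summits, and the mean position of all summits gave 8 calls. Ranked among the members alone, an alternative chosen after seeing the data, 143 rose and 152 fell, among them 109 of the former 121 rises and 138 of the former 154 falls.

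Summits within the shortened lists, counted per region in place of ranked, gave 76 rises and 6 falls. These were 8.17% and 0.645% of members, against 12.4% and 16% of all regions tested. Of the named changes 16 had the opposite sign there, among them those at 0.146 (Polr2a, Grn, Ubb), 0.0487 (Calr, Rplp0), 0.112 (the Mfsd12 and Sharpin regions), 0.181 (Metrnl), 0.244 (Trmt2a), 0.388 (Tpt1), -0.195 (the Fyco1 region), -0.0346 (the Gramd2 and Pkm region), -0.167 (Pfkl), -0.146 (Cyfip1) and -0.0487 (Bcl10) on the scale of log2(summits + 1); the cause was not tested.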
